A study of Mus musculus with 6 samples.

Results

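The genes described here are 10 targets of the transcription factor p53 that act in apoptosis or as death receptors, namely Bax, Bbc3, Pmaip1, Fas, Tnfrsf10b, Eda2r, Perp, Pidd1, Aen and Apaf1. They were chosen by name, with earlier results of these data known, from the 47719 genes with a value in every mouse. RNA was measured in whole prostates of 6 mice of strain B6.129S4-Trp53tm3.1Tyj/J. Wildtype mice 39 and 41 were Trp53+/+, heterozygous mice 37 and 40 carried 1 R270H allele, and homozygous mice 47 and 49 carried 2. Every mouse was about 3 months old, had received 5 Gy of whole body irradiation and was dissected 6 h later, so the control mice were irradiated too and no unirradiated mouse was compared. The labels name no promoter, Cre or litter.

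After DNA damage, p53 is stabilised and binds DNA near its target genes, which raises their transcription. Some targets act at the mitochondrion, where BAX opens the outer membrane and the BH3-only proteins PUMA (Bbc3) and NOXA (Pmaip1) set it free to do so, and released cytochrome c then assembles APAF1 into the apoptosome that activates caspases. Others are receptors at the cell surface, which activate caspases when a ligand binds. R270H lies in the DNA-binding domain of mouse p53 and is the counterpart of a hotspot mutation of human tumours.

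Values are FPKM, the fragments of a gene scaled by the length of its transcript and by the mapped fragments of the library, so levels can be compared between genes. Of the 10 targets, 5 were called lower in homozygous than in wildtype mice by the test given below. Their falls ran from 1.59 (Bbc3) to 4.21 (Eda2r) on the log2 scale, and the other 3 called were Bax, Tnfrsf10b and Aen. Both homozygous values were below both wildtype values for all 10, beside 28.7% of tested genes. The death receptor Fas was at 83.6% of its wildtype mean in heterozygous and 85.8% in homozygous mice, and was not called. No target was higher in mutant mice past the threshold. The test was limma on log2(FPKM + 0.1) over the 13818 genes whose FPKM averaged 1 or more, with Benjamini-Hochberg adjustment over all of them and a threshold of 0.05. Pmaip1, with a mean of 0.949 FPKM, missed that minimum, so 9 targets were tested. The 5 of 9 that passed stand beside 0.261% of all tested genes that were called lower. Because earlier results were known when the targets were chosen, this contrast is a description and not independent support. In bulk tissue, fewer cells of a type and less RNA per cell cannot be told apart.

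**Figure D1:**
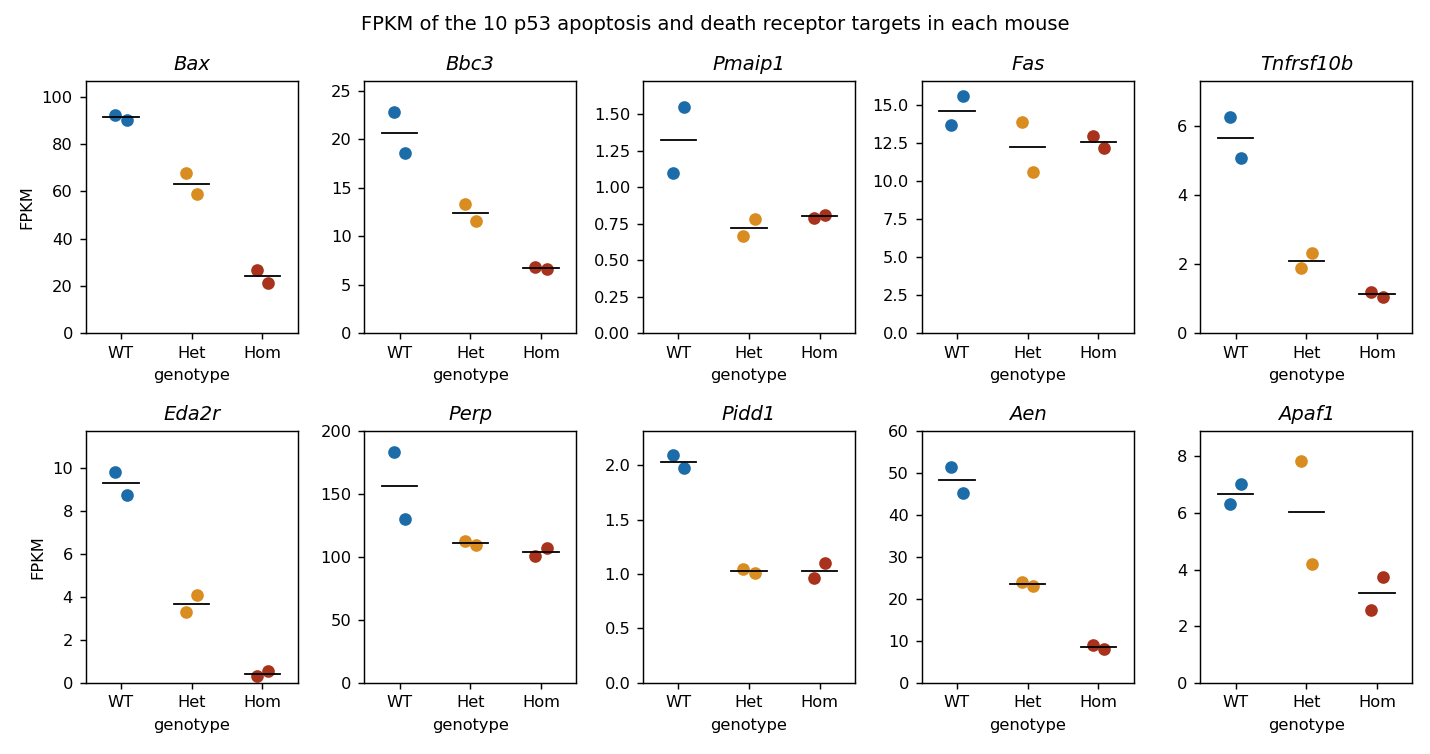
Each panel plots the FPKM of 1 target (linear axis from 0) against genotype, with a point for each mouse and a line at the mean of the 2 mice. Bax, Bbc3, Tnfrsf10b, Eda2r, Perp and Aen fell from wildtype (WT) to heterozygous (Het) to homozygous (Hom) without overlap, and Fas stayed between 10.6 and 15.6 FPKM.

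RefSeq holds windows around the transcription start (250 bases before to 50 after, GRCm38.p6) for 7 of the 10 targets. They were searched for the p53 consensus, which is 2 copies of a 10-base unit that reads the same on both strands. A match had the copies directly adjacent, with the C and the G at the core of each copy kept and at most 3 mismatches in all, a limit set after these windows had been seen. Such a match was present in 2 of the 7 targets, Bbc3 and Aen, and in 1.63% of the 27025 genes with a window. A single 10-base unit without mismatch was present in Bax and Aen and in 9.55% of genes. The windows of these 3 genes, which fell in homozygous mice, and that of Fas, chosen as the target with the smallest change, are printed 5′ to 3′, with the matched bases in capitals. The Bbc3 window is chr7:16309333-16309632 on the plus strand, 1 of 3 listed for this gene, with its match from 97 bases before the start and 3 mismatches. The Aen window is chr7:78895677-78895976 on the plus strand, 1 of 2 listed, with its match from base 11 after the start and 3 mismatches. The Bax window is chr7:45466849-45467148 on the minus strand, with the single unit from 201 bases before the start. The Fas window is chr19:34290409-34290708 on the plus strand and holds no match of either kind. The same holds for the windows of Eda2r, which had the largest fall of the called targets, and of Pidd1 and Apaf1, which are not printed. A match is a description of letters, and none of the windows was measured for p53 binding here.
Bbc3: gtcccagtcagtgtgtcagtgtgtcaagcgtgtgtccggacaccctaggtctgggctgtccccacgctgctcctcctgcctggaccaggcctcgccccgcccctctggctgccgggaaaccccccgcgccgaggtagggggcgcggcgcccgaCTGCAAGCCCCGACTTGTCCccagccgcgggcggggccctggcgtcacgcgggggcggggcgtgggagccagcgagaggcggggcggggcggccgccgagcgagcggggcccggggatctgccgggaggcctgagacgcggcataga
Aen: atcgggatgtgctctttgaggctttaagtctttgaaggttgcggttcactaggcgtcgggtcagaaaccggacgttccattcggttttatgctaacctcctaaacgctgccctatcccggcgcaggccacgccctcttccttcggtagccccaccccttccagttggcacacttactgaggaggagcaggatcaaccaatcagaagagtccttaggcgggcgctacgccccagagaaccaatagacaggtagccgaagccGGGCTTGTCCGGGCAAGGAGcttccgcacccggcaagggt
Bax: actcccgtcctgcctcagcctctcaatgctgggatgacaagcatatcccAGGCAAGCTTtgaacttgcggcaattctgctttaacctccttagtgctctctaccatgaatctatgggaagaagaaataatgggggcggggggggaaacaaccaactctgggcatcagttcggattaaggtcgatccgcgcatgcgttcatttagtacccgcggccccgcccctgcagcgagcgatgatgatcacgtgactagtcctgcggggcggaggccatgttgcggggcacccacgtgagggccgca
Fas: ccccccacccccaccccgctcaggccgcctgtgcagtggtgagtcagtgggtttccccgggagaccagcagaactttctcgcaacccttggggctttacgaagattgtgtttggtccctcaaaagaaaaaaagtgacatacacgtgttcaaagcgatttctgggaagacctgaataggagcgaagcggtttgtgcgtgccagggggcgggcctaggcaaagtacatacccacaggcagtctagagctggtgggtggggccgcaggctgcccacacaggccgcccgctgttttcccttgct

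Bax, the pore-forming member of the BCL2 family, lies on chromosome 7 from 45461697 to 45466898 (minus strand). Its FPKM was 92.5 and 90.4 in wildtype, 67.6 and 58.9 in heterozygous mice, and 26.8 and 21.4 FPKM in homozygous mice. The 3 genotypes did not overlap, and homozygous mice kept 26.4% of the wildtype mean. The log2 fold change was -1.93 in homozygous mice (SE 0.152, limma adjusted p = 0.0207), and the heterozygous difference of -0.53 did not pass (adjusted p = 0.488). Of the exonic bases of Bax, 192 (12.2%) are shared on the same strand with the annotated gene Gm45808. That gene has no value in these data. Whether fragments from it were counted for Bax was not tested.

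Bbc3 encodes PUMA, a BH3-only protein that neutralises the survival members of the BCL2 family, and lies on chromosome 7 from 16308393 to 16318205. Wildtype mice had 22.8 and 18.6 FPKM, heterozygous mice 13.3 and 11.6, and homozygous mice 6.87 and 6.66. Again no genotype overlapped another. The log2 fold change was -1.59 in homozygous mice (SE 0.147, limma adjusted p = 0.0314) and -0.72 in heterozygous mice (adjusted p = 0.290). Pmaip1, which encodes NOXA, another BH3-only protein, was the lowest target in wildtype mice, with 1.10 and 1.55 FPKM. It had 0.663 and 0.783 in heterozygous mice and 0.790 and 0.810 FPKM in homozygous mice, so both mutant genotypes were below wildtype and the homozygous mice were above the heterozygous ones. With no minimum on expression its log2 fold change was -0.64 in homozygous (limma adjusted p = 0.454) and -0.78 in heterozygous mice (adjusted p = 0.811), neither past the threshold.

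Among the receptors, Eda2r had the largest fold change. It encodes the receptor of ectodysplasin A2, a member of the TNF receptor superfamily, and lies on the X chromosome from 97333840 to 97377216. It had 9.83 and 8.76 FPKM in wildtype, 3.28 and 4.09 in heterozygous mice, and 0.299 and 0.544 FPKM in homozygous mice, which left 4.53% of the wildtype mean in homozygous mice. The groups lay far apart, with the highest homozygous value below the lowest heterozygous value by more than the spread within either. The log2 fold change in homozygous mice was -4.21 (SE 0.290, limma adjusted p = 0.0128), and that in heterozygous mice was -1.32 (adjusted p = 0.355). The lowest values rest on few fragments, roughly 42 in homozygous mouse 47 and 110 in mouse 49, and with a pseudocount of 1 in place of 0.1 the fall was 2.86 on the log2 scale.

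Tnfrsf10b, the mouse receptor of the death ligand TRAIL, lies on chromosome 14 from 69767472 to 69784411. Its values were 6.26 and 5.07 FPKM in wildtype, 1.89 and 2.31 in heterozygous mice, and 1.19 and 1.05 FPKM in homozygous mice. Heterozygous mice were nearer to homozygous than to wildtype mice. The log2 fold change was -2.24 in homozygous (SE 0.225, limma adjusted p = 0.0369) and -1.39 in heterozygous mice (adjusted p = 0.221). Fas, the receptor of FAS ligand and the best known death receptor, lies on chromosome 19 from 34290666 to 34327772 and was not called. It had 13.7 and 15.6 FPKM in wildtype, 13.9 and 10.6 in heterozygous mice, and 13.0 and 12.2 FPKM in homozygous mice. The heterozygous mice overlapped both other genotypes, and the homozygous values lay just below the lower wildtype value. Its log2 fold change was -0.22 in homozygous mice (95% interval -0.63 to 0.19, limma adjusted p = 0.524) and -0.27 in heterozygous mice (95% interval -0.68 to 0.14, adjusted p = 0.860), so these mice do not show that Fas was equal in the 3 genotypes, and a moderate fall is within the intervals.

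Perp encodes a membrane protein of desmosomes in epithelia that was first described as an apoptosis effector of p53. It was the most abundant target in every genotype, with 184 and 130 FPKM in wildtype, 113 and 110 in heterozygous mice, and 101 and 107 FPKM in homozygous mice. The values fell in order of allele number, but the 2 wildtype mice differed by more than the mutant mice did from the lower of them. The log2 fold change was -0.58 in homozygous (SE 0.188, limma adjusted p = 0.219) and -0.48 in heterozygous mice (adjusted p = 0.713), neither past the threshold.

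Aen, a nuclease that takes part in the breakdown of DNA in apoptosis, lies on chromosome 7 from 78895854 to 78911209 and had the smallest adjusted p of the targets. It was at 51.5 and 45.4 FPKM in wildtype, 24.1 and 23.2 in heterozygous mice, and 8.96 and 8.12 FPKM in homozygous mice. The 2 mice of each genotype were close together and the genotypes far apart. Homozygous mice had a log2 fold change of -2.49 (SE 0.122, limma adjusted p = 0.00470) and heterozygous mice one of -1.03 (adjusted p = 0.172).

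Apaf1 and Pidd1 encode scaffolds on which caspases are activated, the apoptosome and the PIDDosome. Pidd1 had 2.09 and 1.97 FPKM in wildtype, 1.05 and 1.01 in heterozygous mice, and 0.961 and 1.10 FPKM in homozygous mice. Both mutant genotypes had a mean of 1.03 FPKM, and the log2 difference between them was 0.00 (95% interval -0.69 to 0.69). Against wildtype the log2 fold change was -0.91 in homozygous (limma adjusted p = 0.205) and -0.91 in heterozygous mice (adjusted p = 0.547). Apaf1 was at 6.32 and 7.03 FPKM in wildtype mice, at 7.85 and 4.21 in heterozygous mice, and at 2.58 and 3.73 FPKM in homozygous mice. The 2 heterozygous mice lay on either side of the wildtype values. The homozygous difference of -1.08 on the log2 scale (SE 0.331, limma adjusted p = 0.208) did not pass, and the heterozygous difference was -0.21 (adjusted p = 0.958), and it was 0.23 without heterozygous mouse 40.

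**Figure D2:**
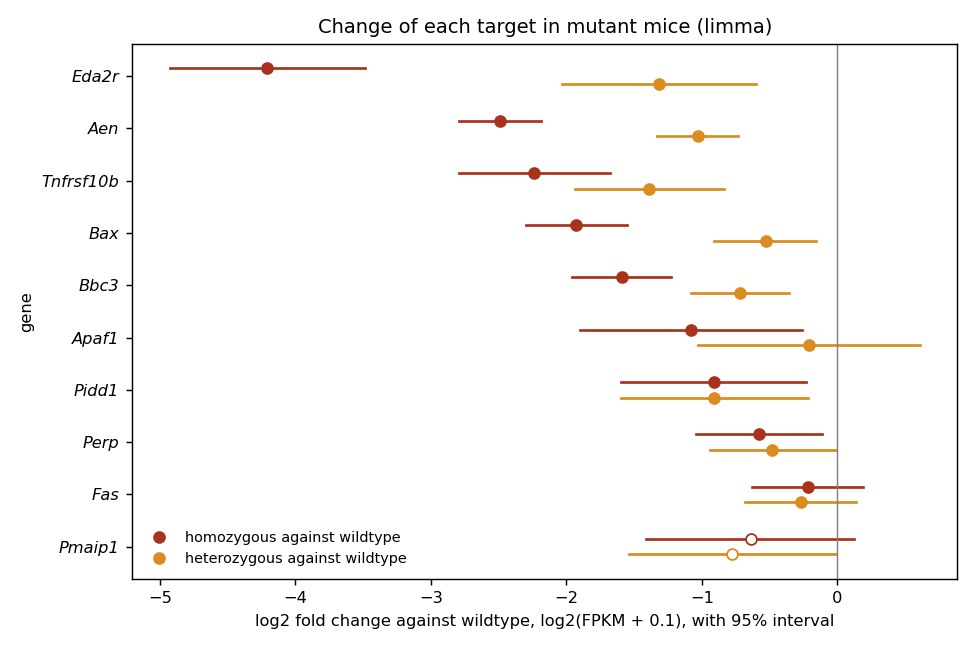
The log2 fold change of each target against wildtype is plotted on the x axis (log2(FPKM + 0.1)), in homozygous mice (red) and heterozygous mice (orange), with bars for the 95% interval of each gene from limma. Eda2r was lowest in homozygous mice at -4.21, the intervals of Fas include 0, and the open points of Pmaip1 come from a fit with no minimum on expression.

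Because FPKM is per length, the targets can be ordered by level. In wildtype mice the order was Perp (157 ± 37.9 FPKM, SD, n = 2), Bax (91.4 ± 1.47), Aen (48.5 ± 4.29), Bbc3 (20.7 ± 2.92), Fas (14.7 ± 1.31), Eda2r (9.29 ± 0.762), Apaf1 (6.67 ± 0.498), Tnfrsf10b (5.66 ± 0.842), Pidd1 (2.03 ± 0.0848) and Pmaip1 (1.32 ± 0.313), and no neighbours in it overlapped. In homozygous mice Fas (12.6 ± 0.555 FPKM) stood in the third place after Perp and Bax, and Eda2r (0.421 ± 0.174 FPKM) had moved from the sixth place to the last. Tnfrsf10b and Pidd1, at 1.12 and 1.03 FPKM, overlapped there. In heterozygous mice Bbc3 and Fas overlapped, at 12.5 and 12.3 FPKM.

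Across the 10 targets, both homozygous values were below both wildtype values for all 10, beside 28.7% of tested genes. For 8 of the 10, Fas and Apaf1 being the exceptions, both heterozygous values were below both wildtype values, beside 19.9% of tested genes. Values fell in order of allele number without overlap for 6 of the 10 targets, beside 4.98% of tested genes. These 6 were Bax, Bbc3, Tnfrsf10b, Eda2r, Perp and Aen, and the exceptions besides Pmaip1 and Fas were Pidd1 and Apaf1. The pairs of genotypes share mice, so these counts are not independent of each other.

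The question of dosage is whether 1 mutant allele already changes the targets. In heterozygous against wildtype mice limma called 0 of 9 targets at an adjusted p under 0.05, and 0% of tested genes. At an unadjusted p under 0.05, 7 of the 9 were lower, all but Fas and Apaf1, beside 2.21% of tested genes. The median log2 fold change of the 9 was -0.72 in heterozygous and -1.59 in homozygous mice, beside -0.01 and -0.04 for all tested genes. Between homozygous and heterozygous mice limma called 0 of 9 targets, beside 0.0145% of tested genes in either direction, and 6 of 9 were lower in homozygous mice at an unadjusted p under 0.05, beside 4.42% of tested genes. The moderated F-test over the 3 genotypes called 3 targets, Aen (adjusted p = 0.0143), Eda2r (0.0350) and Bax (0.0499), beside 0.101% of tested genes. A slope on the number of R270H alleles called the same 5 targets as the comparison of homozygous with wildtype mice. Of all tested genes 0.333% were called falling. With 2 mice per genotype, the size of the slope depends only on the homozygous and wildtype mice, and heterozygous mice enter only its spread. The slope therefore cannot show what 1 allele does, and its 5 calls are not separate support. Per allele the log2 level fell by 2.11 for Eda2r (SE 0.219, limma adjusted p = 0.0249), 1.24 for Aen (SE 0.0735, adjusted p = 0.00499), 1.12 for Tnfrsf10b (SE 0.120, adjusted p = 0.0258), 0.96 for Bax (SE 0.117, adjusted p = 0.0352) and 0.80 for Bbc3 (SE 0.0699, adjusted p = 0.0128).

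The share of the homozygous fall that was present with 1 allele is given next for the 7 tested targets other than Fas and Apaf1, without a test between targets. On the linear FPKM scale heterozygous mice had 41.9% of the fall for Bax, 59.0% for Bbc3, 62.2% for Aen, 63.2% for Eda2r, 78.4% for Tnfrsf10b, 86.2% for Perp and 100% for Pidd1. On the log2 scale the shares were lower, at 27.7% for Bax, 31.3% for Eda2r, 41.4% for Aen, 45.3% for Bbc3, 62.1% for Tnfrsf10b, 82.8% for Perp and 99.8% for Pidd1. For Bax the share was under 50% on both scales, and for Eda2r, Aen and Bbc3 it was over 50% on the linear scale and under 50% on the log2 scale, where a share under 50% puts the heterozygous level above the midpoint. A departure from the log2 midpoint was called by limma for 0 of 9 targets and 0% of tested genes. At an unadjusted p under 0.05 there were 2 of 9, beside 3.10% of tested genes. These were Bax, with a heterozygous level 0.43 above the midpoint (95% interval 0.10 to 0.75, limma adjusted p = 0.980), and Eda2r, 0.79 above it (95% interval 0.17 to 1.41, adjusted p = 0.980).

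**Figure D3:**
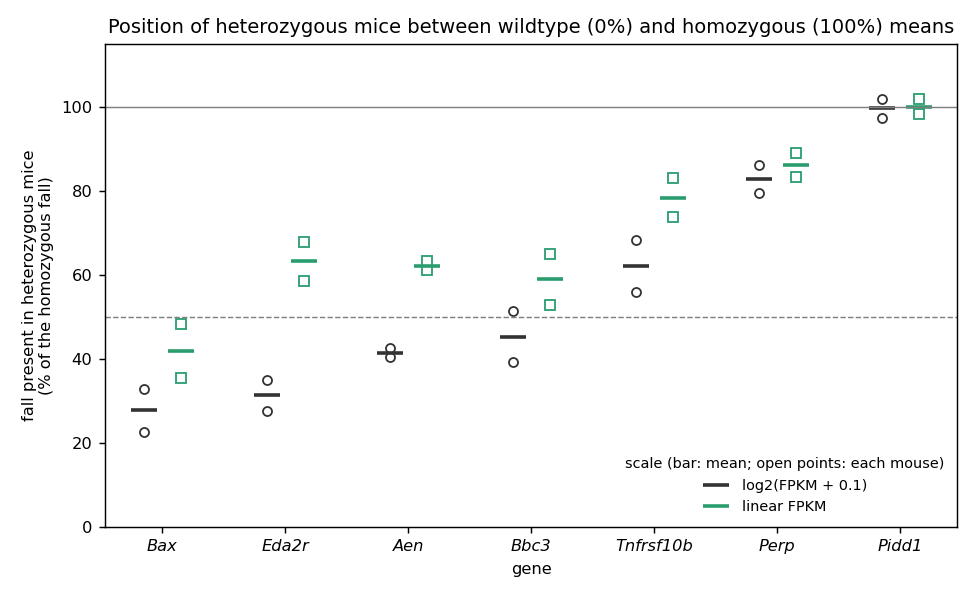
For the 7 tested targets in which both heterozygous mice were below both wildtype mice, the y axis gives the position of heterozygous mice between the wildtype mean (0%) and the homozygous mean (100%), on the log2 scale (black) and the linear scale (green), with bars for the mean and open points for each mouse. Bax lies lowest on both scales (27.7% and 41.9%) and Pidd1 at the homozygous level.

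The calls rest on few mice. Without homozygous mouse 47, limma called 1 of the 5, Aen, and the log2 fold changes of the others were -2.09 for Bax (adjusted p = 0.0634), -1.61 for Bbc3 (adjusted p = 0.181), -2.32 for Tnfrsf10b (adjusted p = 0.179) and -3.86 for Eda2r (adjusted p = 0.0516). The number called in homozygous against wildtype mice was 1 without wildtype mouse 39, 4 without wildtype mouse 41, 3 without homozygous mouse 49, and 0 without heterozygous mouse 37 or 40, whose loss leaves the fold changes as they were and only the estimate of the spread with fewer mice. In every such fit the 5 fold changes stayed negative, with Bbc3 between -1.74 and -1.45 and Aen between -2.58 and -2.37 over all alternatives.

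Trp53 itself had 17.3 and 21.4 FPKM in wildtype, 20.9 and 19.6 in heterozygous mice, and 20.8 and 18.3 FPKM in homozygous mice, and overlapped between the 3 genotypes. The ligands of the receptors were at low levels. Tnfsf10, which encodes TRAIL, the ligand of the Tnfrsf10b receptor, had 0.950 and 1.31 FPKM in wildtype, 1.07 and 1.38 in heterozygous mice, and 1.69 and 2.40 FPKM in homozygous mice (log2 fold change in homozygous mice 0.80, 95% interval -0.03 to 1.62, limma adjusted p = 0.289). Fasl, the ligand of Fas, lay between 0.0383 and 0.176 FPKM, and Eda, whose A2 form binds the Eda2r receptor, between 0.738 and 1.41 FPKM, and neither reached the minimum for a test.

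The partners with which the targets work did not fall with them past the threshold. Of 10 tested death receptor signalling partners, such as adaptors and the initiator caspase, limma called 0, and 1 was lower and 0 higher at an unadjusted p under 0.05, beside 9.32% lower and 8.65% higher among all tested genes, with a median log2 fold change of -0.11 in homozygous mice. Tradd, an adaptor of TNF receptors, had -0.42 (adjusted p = 0.222) and the decoy TRAIL receptor Tnfrsf23 -0.38 (adjusted p = 0.606). Of 10 tested mitochondrial partners limma called 0, with 4 lower and 1 higher at an unadjusted p under 0.05 and a median of -0.21. The survival genes Bcl2 and Bcl2l1 had the largest differences of this list, in opposite directions. Bcl2 had 3.49 and 2.87 FPKM in wildtype and 4.99 and 5.12 in homozygous mice (log2 fold change 0.66, limma adjusted p = 0.164), and Bcl2l1, which encodes BCL-XL, 53.9 and 42.5 in wildtype and 27.1 and 34.2 in homozygous mice (log2 fold change -0.65, adjusted p = 0.182). Of 14 tested genes of the apoptosome, the PIDDosome and the effector caspases limma called 0, with 2 lower and 2 higher at an unadjusted p under 0.05 and a median of -0.17. The effector caspase Casp6 had a log2 fold change of -0.85 (limma adjusted p = 0.247).

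The list of p53 targets that act in cell cycle arrest, DNA repair and feedback held further called genes. Of 18 tested, 8 were called lower in homozygous mice and 0 higher, beside 0.261% of all tested genes called lower. This list too was chosen with earlier results of these data known. Their median log2 fold change was -1.17, beside a median of -0.04 for all tested genes. Cdkn1a, the cell cycle inhibitor p21, had a log2 fold change of -4.00 (limma adjusted p = 0.000750), close to that of Eda2r. The other 7 were Gtse1 (-3.11), Sesn2 (-2.59), Trp53inp1 (-2.07), Phlda3 (-2.00), Ccng1 (-1.91), Zmat3 (-1.53) and Mdm2 (-1.30), the last being the ubiquitin ligase that degrades p53. In heterozygous mice limma called 0 of the 18, and 12 were lower at an unadjusted p under 0.05, beside 2.21% of tested genes.

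**Figure D4:**
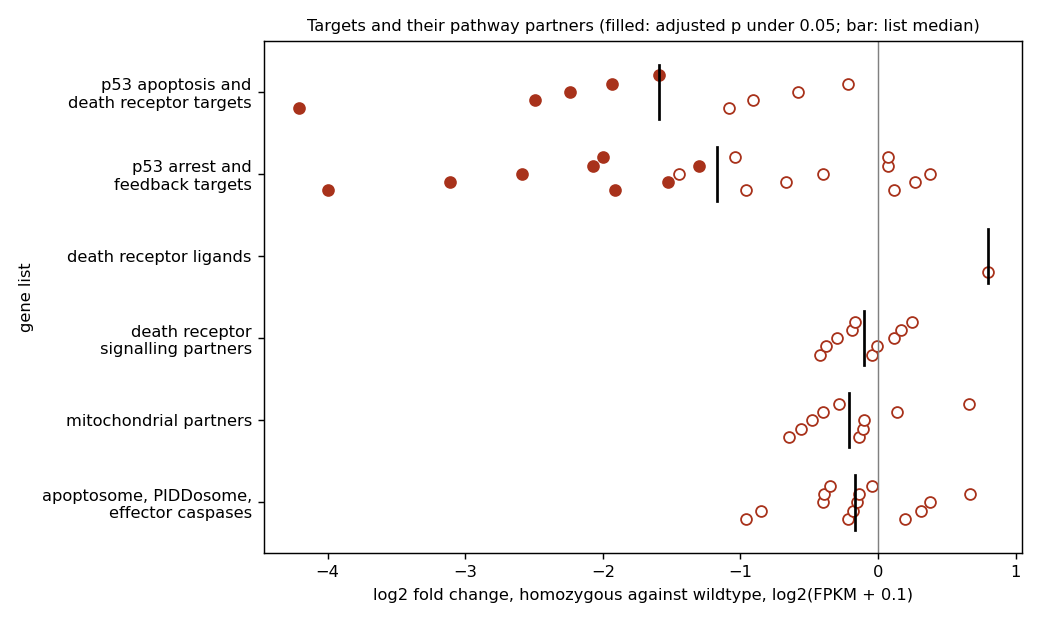
The change in homozygous mice against wildtype (x axis, log2(FPKM + 0.1)) is plotted for each tested gene of 6 lists, with filled points for an adjusted p under 0.05 and a bar at the median of each list. The apoptosis targets (median -1.59) and the arrest and feedback targets (median -1.17) hold all the filled points, 5 and 8.

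For each called target, the nearest profiles among all tested genes were found by the root mean square difference of log2(FPKM + 0.1) over the 6 mice after the wildtype mean of each gene was subtracted. Nearest to Bax were Phlda3 (difference 0.198), Aaas (0.239) and Bbc3 (0.246). Nearest to Bbc3 were Aaas (0.098), Dcxr (0.112) and Pvt1 (0.130). For Aen they were Sesn2 (0.125), Ephx1 (0.132) and 9030617O03Rik (0.169), and for Tnfrsf10b Fam212b (0.207), Ccng1 (0.251) and Sesn2 (0.264). For Eda2r they were Cdkn1a (0.276), Gm37795 (0.438) and Igkv17-121 (0.458), which is listed at 0 in both homozygous mice. The difference was not scaled by the size of each fall, so it cannot be compared between targets with unlike falls. Cdkn1a had 109 and 101 FPKM in wildtype, 40.5 and 41.4 in heterozygous mice, and 6.70 and 6.17 FPKM in homozygous mice. Likeness here is over 6 mice and was not tested.

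Markers of the cell types in the samples were compared beside the genotype. Luminal markers were present in every mouse, with 0 of 12 at 0 and a summed level of 65500 and 34600 FPKM in wildtype, 36800 and 39200 in heterozygous mice, and 36900 and 31200 FPKM in homozygous mice. Much of this sum came from Spink1, with 47200 and 11400 FPKM in wildtype mice 39 and 41 and 19500 and 25000 in heterozygous mice. In homozygous mice 47 and 49 Spink1 had 34800 and 18900 FPKM. Of the 12 luminal markers, 8 were below wildtype in both homozygous mice, beside 28.7% of tested genes, and 0 were above. At an unadjusted p under 0.05, 4 were lower and 0 higher, beside 9.32% and 8.65% of tested genes. For these markers limma called 0, and their median log2 fold change was -0.42. In homozygous mouse 47 the secretory gene Pbsn (probasin) was at 257 FPKM, against 7330 to 11500 in the other mice, while the keratin Krt8 was at 179, against 134 to 189. Skeletal muscle markers, none of 15 at 0, summed to 1980 and 2850 FPKM in wildtype, 5470 and 5750 in heterozygous mice, and 6770 and 5820 FPKM in homozygous mice. In both mice of each mutant genotype 14 of 15 were above wildtype, a count for which the share of all tested genes was not computed. At an unadjusted p under 0.05, 13 of the 14 tested were higher in homozygous mice, beside 8.65% of tested genes. In heterozygous mice 13 were higher, beside 644 of all 13818 tested genes. The median log2 fold change was 1.38 in homozygous and 1.23 in heterozygous mice, and limma called 1 and 0 higher. Seminal vesicle markers ranged from 3490 FPKM in wildtype mouse 39 to 64600 in homozygous mouse 47, with 3 of 8 at 0 in a mouse. Svs2 was listed at 0 in both homozygous mice and at 256 to 14700 FPKM in the others, and Svs4 and Svs5 were listed at 0 in mouse 47 only. The summed lymphocyte markers (12 genes, none at 0) were 6.06 and 6.91 FPKM in wildtype, 7.35 and 7.39 in heterozygous mice, and 7.64 and 9.84 FPKM in homozygous mice. Basal markers (9 genes, none at 0) lay between 162 and 239 FPKM and smooth muscle markers (8 genes, none at 0) between 1700 and 2770 FPKM. The part of these differences in the falls of the targets was not tested. The number of fragments, estimated from the value of 1 fragment in the lowest genes, was 0.79 to 1.1 times that of wildtype mouse 39, with both the least and the most in homozygous mice.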

How the data were processed

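RNA of 6 irradiated mouse prostates (2 per Trp53 genotype, grouped by the labels) was sequenced from stranded mRNA libraries as read pairs. The authors aligned reads to GRCm38 (mm10) with HISAT and deposited gene-level FPKM from Cufflinks, 1 table per mouse. Their processing notes also name bcl2fastq and Cuffnorm, and versions are not given in the sources used here. FPKM are not counts, so no count test was used. The depth was only estimated, and a single value has no counting interval.

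Where a symbol had several identifiers, the one highest in FPKM over the mice was taken. Genes with a mean of at least 1 FPKM (13818 of 47719) were tested on log2(FPKM + 0.1) with limma 3.58.1 (lmFit, eBayes with trend) in R 4.3.3, with the 3 genotypes in 1 fit, two-sided contrasts, and Benjamini-Hochberg adjustment over all tested genes. The pseudocount understates the change of low genes. The fit was tested on simulated data. Positions are from GENCODE M21 and promoter windows from RefSeq. Nothing beyond the animal number says that mice were independent litters, so the p-values speak for these mice only. They set each difference against an estimate of the spread between mice. limma draws part of that estimate from other genes, with 2.77 prior degrees of freedom beside 3 residual ones.

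The members and gene lists were chosen with earlier results of these data known. Named genes were the 10 members, Trp53, the 3 ligands, the called genes of each pathway list or else its 2 with the largest change, and the 3 nearest profiles of each called member. A gene that this rule names is not reported here. Alternatives were other pseudocounts, filters and scalings, no trend, fits on 4 mice, and leaving out each mouse.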

Additional observations from a re-analysis of the deposited data

How the results depend on the processing

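With 2 mice per genotype the calls depended on the setting. In homozygous against wildtype mice the 9 tested targets kept a negative fold change under every alternative run, and of 73 fold changes of the 5 called targets 40 kept the call and 33 lost it. The targets called in that comparison (5) numbered 1 with no filter on low values, 3 with a mean FPKM of at least 5 (where 2 of the 5 were not tested and the other 3 stayed called), 3 with values scaled to an equal sum, 0 with only the 4 mice of both genotypes, and 0 to 4 when each mouse was left out. All genes called there (53) numbered 4 with no filter, 29 with scaling to a sum, 23 with no intensity trend, 2 with only 4 mice, and 4 to 96 when each mouse was left out. The genes called in heterozygous against wildtype mice (0) numbered 1 with only 4 mice and 0 to 1 when each mouse was left out. The targets called between homozygous and heterozygous mice numbered 0 to 1 when each mouse was left out, the 1 arising without homozygous mouse 49. The F-test called 0 targets with no filter, 1 after quantile normalization, 1 with no intensity trend, and 0 to 0 when each mouse was left out, against 3. The slope called 2 with no filter, 3 with a mean FPKM of at least 5 (all 3 of its called targets still tested), and 0 to 3 when each mouse was left out, against 5. Of heterozygous fold changes 1 of 132 reversed, that of Apaf1, at 0.23 without heterozygous mouse 40 (-0.65 without mouse 37). Fits with fewer mice estimate the spread from fewer values, and a fit with more genes adjusts over more of them. The cause of the changes in the calls was not tested. No paired analysis was possible because the labels give no replicate number shared between genotypes. Low values such as those of Pmaip1 and of Eda2r in homozygous mice are limited by depth.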

Other observations

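Within the list of arrest, repair and feedback targets, 10 of 18 tested genes were not called. The genes named here were chosen after their values were seen. The paralogs Sesn2 and Sesn1, which encode sestrins that act in the response to stress, fell on either side of the threshold. Sesn2 had 35.9 and 35.7 FPKM in wildtype, 15.1 and 17.1 in heterozygous mice, and 5.98 and 5.74 FPKM in homozygous mice (log2 fold change in homozygous mice -2.59, limma adjusted p = 0.00390), while Sesn1 had 12.4 and 9.03, 12.2 and 11.7, and 11.8 and 13.7 FPKM in the same order (0.27, adjusted p = 0.484). Among genes of DNA repair and nucleotide supply, Xpc (0.07, limma adjusted p = 0.808), Ddb2 (0.07, adjusted p = 0.866) and Rrm2b (0.12, adjusted p = 0.815) overlapped between wildtype and homozygous mice. Polk, a polymerase that copies past damaged bases, had 9.24 and 6.18 FPKM in wildtype and 2.87 and 2.53 in homozygous mice (-1.45, limma adjusted p = 0.110). The repair gene Ercc5 had 11.7 and 8.80 FPKM in wildtype and 6.19 and 6.50 in homozygous mice (-0.67, limma adjusted p = 0.168). Neither Polk nor Ercc5 passed the threshold. The differences between these genes were not tested.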
